A study of Mus musculus with 6 samples.

Results

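The genes described here are those of MHC class II antigen presentation, chosen by name: H2-Aa, H2-Ab1, H2-Eb1, H2-DMa, H2-DMb1, H2-Ob, Cd74, Ciita, Ctss and Ifi30. All 10 were found on the array by the RefSeq accession of their probes, and all 10 passed the filter on dim probes, among 22503 genes and unnamed transcripts tested. RNA came from live CD45- cells sorted from enzymatically dissociated orthotopic mammary transplants, a gate that removes cells bearing the leukocyte protein CD45 and so enriches for tumor cells. The donor tumor cells came from late carcinomas of MMTV-PyMT mice, in which a mammary promoter drives the polyomavirus middle T oncogene, and were either RANK+/+ or RANK-/-. RANK, encoded by Tnfrsf11a, is the receptor activator of NF-kB. The donors had been backcrossed to C57BL/6, and every tumor of either genotype grew in syngeneic C57BL/6 hosts, young adult females per the methods of the study, so that host stromal cells without CD45 could also be in the sort. Each 2-color array held 1 RNA of each genotype. There were 3 such pairs of RNAs, each on 2 technical replicate arrays (A and B), which gave 6 arrays. The RANK-/- RNA was in Cy5 in pair 1 and in Cy3 in pairs 2 and 3. Whether each of the 3 RNAs per genotype had its own tumor is not given in the sources used here, so p-values measure only the spread between these samples.

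A class II molecule is a surface dimer of an alpha and a beta chain that shows peptides from the endosomal pathway to CD4+ T cells. The invariant chain Cd74 holds the peptide groove during assembly, lysosomal proteases such as cathepsin S (Ctss) cut it down, the thiol reductase Ifi30 opens disulfide bonds of antigens, and H2-DM (H2-DMa with H2-DMb1) exchanges the last invariant chain fragment for a peptide. H2-O, of which H2-Ob is the beta chain, restrains H2-DM, mainly in B cells. The transactivator Ciita binds no DNA itself and acts through a complex of RFX, CREB and NF-Y factors seated on the X and Y boxes of class II promoters. Professional antigen-presenting cells carry class II constitutively, and epithelial and other cells can be induced to do so by interferon gamma.

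These X and Y boxes could be seen in the RefSeq promoters (assembly GRCm38.p6). Promoters were matched for 7 of the 10 genes, and those of 4 genes are shown because they hold the same long form of the Y box. Each stretch is 92 bases long, ends before the annotated start, and runs 5′ to 3′ on the strand of the gene. Capitals mark the letters TGATTGG, a long form of the Y box, and, upstream of it, the letters AACNNATG in the X box.
H2-Aa: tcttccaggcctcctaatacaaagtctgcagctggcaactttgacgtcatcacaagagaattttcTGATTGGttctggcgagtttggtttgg
H2-Eb1: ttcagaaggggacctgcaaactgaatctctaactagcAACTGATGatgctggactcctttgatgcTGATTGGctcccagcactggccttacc
H2-DMb1: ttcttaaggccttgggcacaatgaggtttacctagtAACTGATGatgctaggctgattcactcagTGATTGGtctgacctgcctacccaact
H2-Ob: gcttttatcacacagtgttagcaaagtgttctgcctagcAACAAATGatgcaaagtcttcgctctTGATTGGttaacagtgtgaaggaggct
In the same order, the stretches lie at chr17:34287847-34287938 (minus strand), chr17:34305741-34305832 (plus strand), chr17:34153063-34153154 (plus strand) and chr17:34238781-34238872 (plus strand). The Y box began 50, 61, 63 and 59 bases before the annotated start. In H2-Eb1, H2-DMb1 and H2-Ob the 2 boxes were separated by 20, 21 and 18 bases, and in H2-Aa the letters searched for the X box were not in the window. These 2 spellings were chosen after the sequences were read. Over both strands, 8.86% of the 32851 promoters in the table held AACNNATG, and 7.82% held TGATTGG. The ordered pair, with at most 40 bases between, was in 19 promoters (0.0578%). Besides H2-Eb1, H2-DMb1 and H2-Ob these included H2-DMb2 and H2-Eb2. Of the 3 spellings listed for the search, CCAAT, which overlaps the long Y box, was in 5 of the 7 genes (all but Ctss and Ifi30) and in 37.4% of promoters. The X box spelling ACAGATG was in 1 of the 7 (H2-Aa) and in 5.01% of promoters. TTCNNNGAA, the GAS motif of interferon gamma responses, was in 0 of the 7 and in 8.3% of promoters. A match describes letters and not a bound site.

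Before the class II genes, the targeted gene was read. Tnfrsf11a had 1 probe, detected in either channel on all 6 arrays. Its log2 ratios, RANK-/- over RANK+/+, were 2.03, 1.15 and 1.76 in pairs 1, 2 and 3. This goes against its label. The sources used here do not say which part of the gene the allele lacks or where the probe lies, so it is unknown whether this probe can check the labels, and all directions below rest on the channel labels as they stand. A ratio is the log2 signal of the RANK-/- labeled channel over that labeled RANK+/+ within a pair, and a level is the normalized log2 intensity of 1 channel averaged over arrays A and B. Levels are compared here only within a gene, because each probe has its own brightness. Between arrays A and B the technical SD of the ratio was 0.02 to 0.11 over the probes that stand for the 10 genes. For dim genes this was a large part of the ratio. Ciita gave 0.54 and 0.32 on arrays A and B of pair 1 and 0.22 and 0.09 in pair 3, and H2-Ob changed sign between A and B in pairs 1 and 3. Between pairs, ratios over all genes correlated at only -0.279 to 0.178 (Pearson r over genes, which do not count as independent replicates).

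The chains of the classical class II molecules were all higher in the RANK-/- labeled channel of each pair. H2-Ab1, the beta chain of the A molecule, had levels of 14.81, 15.42 and 12.29 in the RANK-/- labeled channels of pairs 1, 2 and 3, and of 13.89, 14.12 and 10.33 in those labeled RANK+/+. Its ratios were 0.92, 1.30 and 1.97, a mean of 1.39 ± 0.53 (SD, n = 3), or 2.63-fold (95% limma interval 1.65 to 4.18). A second probe of H2-Ab1 gave 0.89, 1.31 and 2.04. Both probes thus gave the same ordering of the pairs. H2-Aa, the partner alpha chain, had levels of 10.16, 11.75 and 8.56 against 9.59, 8.88 and 6.52. Its ratios of 0.57, 2.87 and 2.04 averaged 1.83 ± 1.17, the widest spread among the 10 genes. Both chains of this dimer had their smallest ratio in pair 1, and in pair 2 the ratio of H2-Aa far exceeded that of H2-Ab1. H2-Eb1, the beta chain of the E molecule, had levels of 13.46, 14.29 and 11.35 against 12.55, 12.86 and 9.68. Its ratios of 0.91, 1.43 and 1.66 averaged 1.33 ± 0.39. No probe matched H2-Ea, the alpha chain of this molecule, which C57BL/6 mice do not make because of a promoter deletion.

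The chaperone and the peptide exchanger were higher as well. Cd74 had levels of 12.95, 14.08 and 10.98 in the RANK-/- labeled channels and 11.81, 11.73 and 8.67 in those labeled RANK+/+. Its ratios of 1.14, 2.36 and 2.30 averaged 1.93 ± 0.69, or 3.82-fold (95% limma interval 2.17 to 6.71), which ranked 8 among all 22503 means, and 14 by size without regard to sign. H2-DMb1 had levels of 12.25, 12.93 and 10.71 against 10.84, 11.88 and 8.46, with ratios of 1.41, 1.04 and 2.25 (mean 1.57 ± 0.62). Cd74 and H2-DMb1 were the 2 of the 10 genes that were at least 2-fold higher in all 3 pairs, a pattern found in 9 of all genes tested (0.04%). H2-DMa had levels of 9.83, 11.46 and 8.76 against 8.98, 9.67 and 7.23. Its ratios of 0.85, 1.79 and 1.53 averaged 1.39 ± 0.49, near those of its partner H2-DMb1 on average but ordered differently over the pairs. H2-Ob stood apart from them. Its levels were 6.31, 6.35 and 6.35 against 6.31, 6.52 and 6.37, near the floor of the array, and its ratios were 0.00, -0.17 and -0.03 (mean -0.06 ± 0.09). Its probe exceeded background on 5 of 6 arrays for RANK-/- and 6 of 6 for RANK+/+, and a second probe of the gene was above background on 0 arrays, so little can be said of its level.

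The 2 enzymes of the list had different patterns. Ctss had levels of 11.45, 11.20 and 9.57 against 11.28, 10.42 and 7.83, with ratios of 0.17, 0.78 and 1.74 (mean 0.90 ± 0.79). Only in pair 3 was it more than 2-fold higher. Ifi30 had levels of 11.09, 11.54 and 11.94 against 11.52, 11.84 and 11.69, with ratios of -0.43, -0.30 and 0.25 (mean -0.16 ± 0.36). Its sign thus turned between pairs.

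**Figure D1:**
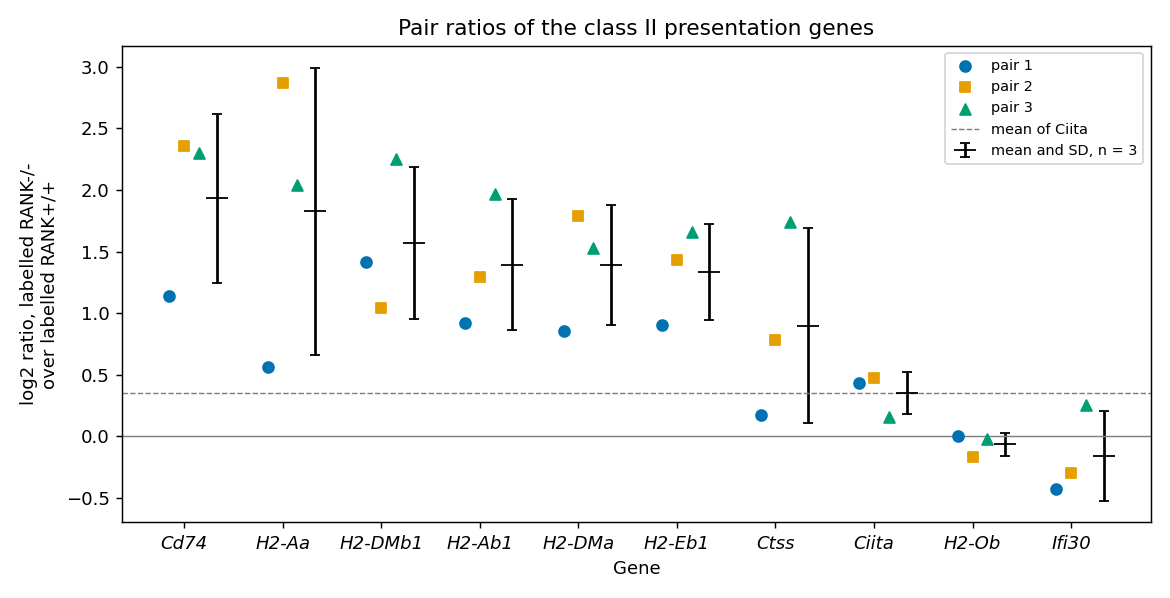
log2 ratio of the RANK-/- labeled channel over that labeled RANK+/+ (y axis) for each of the 10 genes (x axis, by falling mean). Points are the 3 pairs, bars the mean and SD over n = 3 pairs, and the dashed line the mean of Ciita (0.35). The 6 genes at the left lie above 0.5 in every pair, while H2-Ob lies near 0 and Ifi30 changes sign.

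In counts, 8 of the 10 genes were higher in the RANK-/- labeled channel in all 3 pairs, where 9.95% of all genes were, and 0 were lower in all 3, where 9.65% of all genes were. The median ratio over the 10 genes was 0.71, 1.17 and 1.70 in pairs 1, 2 and 3, against 0.02, -0.01 and 0.00 over all genes. By limma on the 3 pair ratios, adjusted over all genes, 0 of the 10 passed the threshold of 0.05, as did 0 of all genes (0%; adjusted p 1.00 for each of the 10). At an unadjusted p under 0.05, limma found 6 of the 10 (H2-Aa, H2-Ab1, H2-Eb1, H2-DMa, H2-DMb1 and Cd74) and 647 of all genes. With the channels as separate samples, and so without the pairing by array, it found 0 of the 10 and 828 of all genes. A rank product over the same ratios called 9 genes, 0 of them in the list, with Cd74 at an adjusted p of 0.0549. With the 6 arrays entered and the pair as a random block, limma called 13 genes, among them Cd74 (adjusted p 0.0240) and H2-Eb1 and H2-DMb1 (adjusted p 0.0455 for both). The calls for these 3 genes therefore depend on how the technical replicates are handled.

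The levels of most class II genes differed more between pairs than between labels. In both channels of pair 3, 8 of the 10 genes (all but H2-Ob and Ifi30) were below all 4 levels of pairs 1 and 2, a pattern of 4.4% of all genes. For H2-Ab1, the mean level of pairs 1 and 2 was 7.05-fold that of pair 3 in the RANK-/- labeled channel and 12.8-fold in the RANK+/+ labeled channel. For Cd74 these folds were 5.82 and 8.54, and for H2-DMa 3.69 and 4.26. Over the 3 RANK-/- labeled channels the levels of the 10 genes spanned a median range of 2.46 on the log2 scale, against 0.41 over all genes. H2-Ab1 spanned 3.12 there and 3.79 over the RANK+/+ labeled channels, both more than its mean ratio of 1.39. For these 8 genes the pair 3 RNA labeled RANK-/- was thus below the RANK+/+ RNAs of the other pairs, and H2-Ob and Ifi30 overlapped between labels in other ways. Of the 10 genes, 0 had all 3 RANK-/- levels above all 3 RANK+/+ levels, where 3.66% of all genes did. Without pair 3, 7 of the 10 did (H2-Aa, H2-Ab1, H2-Eb1, H2-DMa, H2-DMb1, Cd74 and Ciita), with 10.3% of all genes. In these bulk samples, fewer class II positive cells and less class II RNA per cell cannot be told apart.

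**Figure D2:**
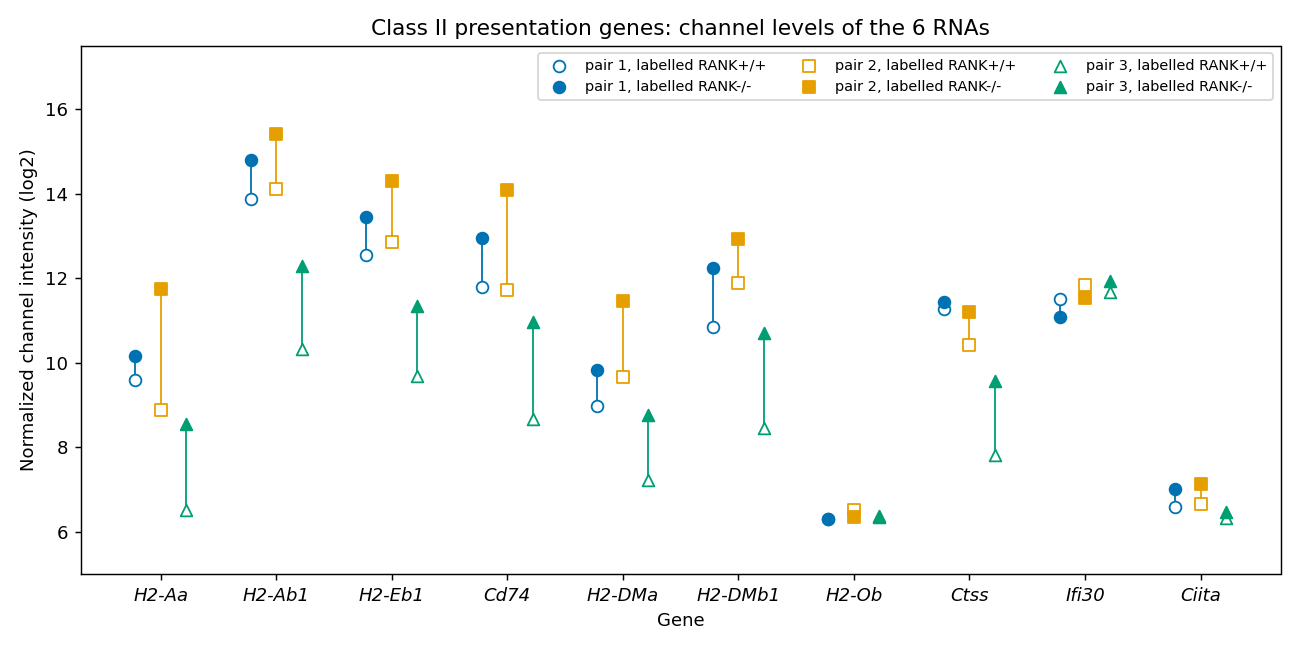
Normalized channel intensity (log2, y axis) of the 10 genes (x axis) in the 6 RNAs. Filled symbols are RANK-/- labeled channels, open symbols those labeled RANK+/+, and a line joins the 2 channels of a pair. Pair 3 (triangles) lies below the other pairs for 8 genes, and its filled triangle below their open symbols, although the filled symbol is above the open one within each pair.

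The same ranking of the 6 RNAs recurred from gene to gene. From high to low it was RANK-/- of pair 2, RANK-/- of pair 1, the 2 RANK+/+ RNAs of pairs 1 and 2, RANK-/- of pair 3 and RANK+/+ of pair 3. H2-Aa, H2-Ab1, H2-Eb1, H2-DMa, H2-DMb1, Cd74 and Ciita followed it, 7 of the 10 genes, against 69 of all genes (0.307%). The ranking was noticed in these data and is a description. The transactivator Ciita thus followed the ranking of its target genes, but at levels of 6.32 to 7.14, near the floor of the array. Its pair 3 levels of 6.47 and 6.32 were close beside the technical SD of its ratio (0.11). The ranking also takes the 2 RANK+/+ RNAs of pairs 1 and 2 in either order. Among the other lists, 1 gene followed it, Psmb10, an immunoproteasome subunit of the class I pathway. Ctss differed from it by the place of pair 1, whose 2 levels were above both levels of pair 2.

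Ciita itself was dim. Its levels were 7.01, 7.14 and 6.47 in the RANK-/- labeled channels and 6.58, 6.67 and 6.32 in those labeled RANK+/+. Its ratios were 0.43, 0.47 and 0.15, higher in every pair, with a mean of 0.35 ± 0.17 (limma p 0.0749, adjusted p 1.00). Its 1 probe exceeded background on 6 of 6 arrays for RANK-/- and 5 of 6 for RANK+/+. Within each pair, H2-Aa, H2-Ab1, H2-Eb1, H2-DMa, H2-DMb1 and Cd74 all had a larger ratio than Ciita, by a mean of 0.98 for H2-Eb1 to 1.58 for Cd74. The exact two-sided sign-flip test over the 3 pairs gave p 0.25 for each of them, the smallest it allows. Ctss exceeded Ciita in 2 of 3 pairs (mean difference 0.55 ± 0.94), Ifi30 in 1 and H2-Ob in 0.

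The size of this gap depended on the processing. The offset is added to both channels. It shrinks the ratio of a dim probe, such as that of Ciita, more than that of a bright one. The mean ratio of Ciita was 0.35 with the offset of 50 used here, 0.51 with an offset of 16, 0.44 without background subtraction and 1.03 with the scanner software's processed signals. Over the same 4 settings Cd74 and H2-Ab1, which are bright, moved little, H2-Ab1 being 1.39 at offset 50 and 1.39 with processed signals. The median difference from Ciita over the other 9 genes was 1.04 at offset 50, 0.90 at offset 16, 0.97 without background subtraction, 0.78 with median centring in place of loess and 0.37 with processed signals. The processed signals differ from the others in both background and dye normalization, which cannot be told apart here. Ciita was positive in the mean under all 16 alternatives that gave it a value (0.29 to 1.03). Its direction was thus steady over these settings, which reprocess or subset the same pairs and so do not replicate it. At the main setting the limma interval of its mean ratio ran from -0.05 to 0.76, which takes in both signs. With processed signals the mean of Ciita (1.03) was above that of Ctss (1.00), while H2-Aa, H2-Ab1, H2-Eb1, H2-DMa, H2-DMb1 and Cd74 stayed above Ciita. Whether and how far Ciita trails these genes was not fixed by these arrays.

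**Figure D3:**
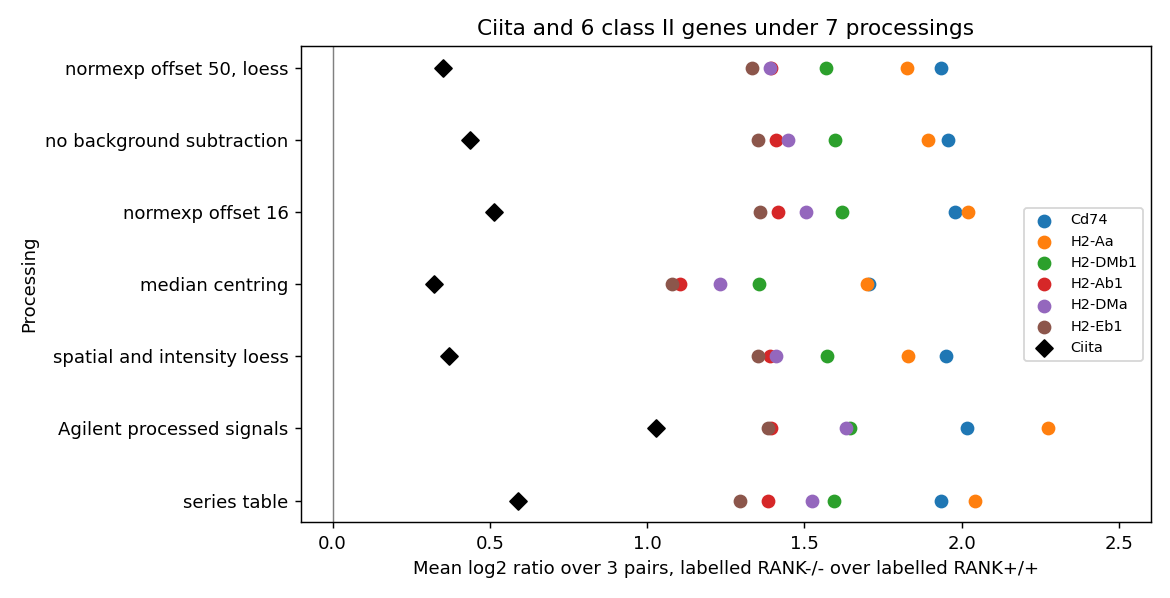
Mean log2 ratio over the 3 pairs (x axis) of Ciita (diamonds) and of 6 class II genes (circles) under 7 processings of the same arrays (y axis). Ciita lies between 0.32 and 1.03 and to the left of all 6 genes in each row, and it moves most with the scanner software's processed signals.

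Other genes of the class II locus were read next, in the order of the RefSeq annotation. The non-classical chain H2-Eb2 had ratios of -0.35, 0.38 and 0.31 at levels of 6.16 to 7.07. H2-DMb2 was above background on 0 arrays, and H2-Oa, the partner of H2-Ob, on 1. Between H2-DMb1 and H2-Ob lie Psmb9, Tap1, Psmb8 and Tap2, genes of the class I pathway (immunoproteasome subunits and peptide transporter). In pair 1 these were at -0.20, -1.24, -0.06 and -0.09, while H2-DMa, H2-DMb1, H2-Ab1, H2-Aa and H2-Eb1 on either side were at 0.57 to 1.41. In pairs 2 and 3 both kinds of genes were positive, at 1.06 to 1.95 for the class I genes and 1.04 to 2.87 for the class II genes. H2-Ob, whose promoter stretch above holds the letters of both boxes, lay near 0 between them. Its levels were near the floor of the array, so this ratio cannot be set against its promoter letters.

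**Figure D4:**
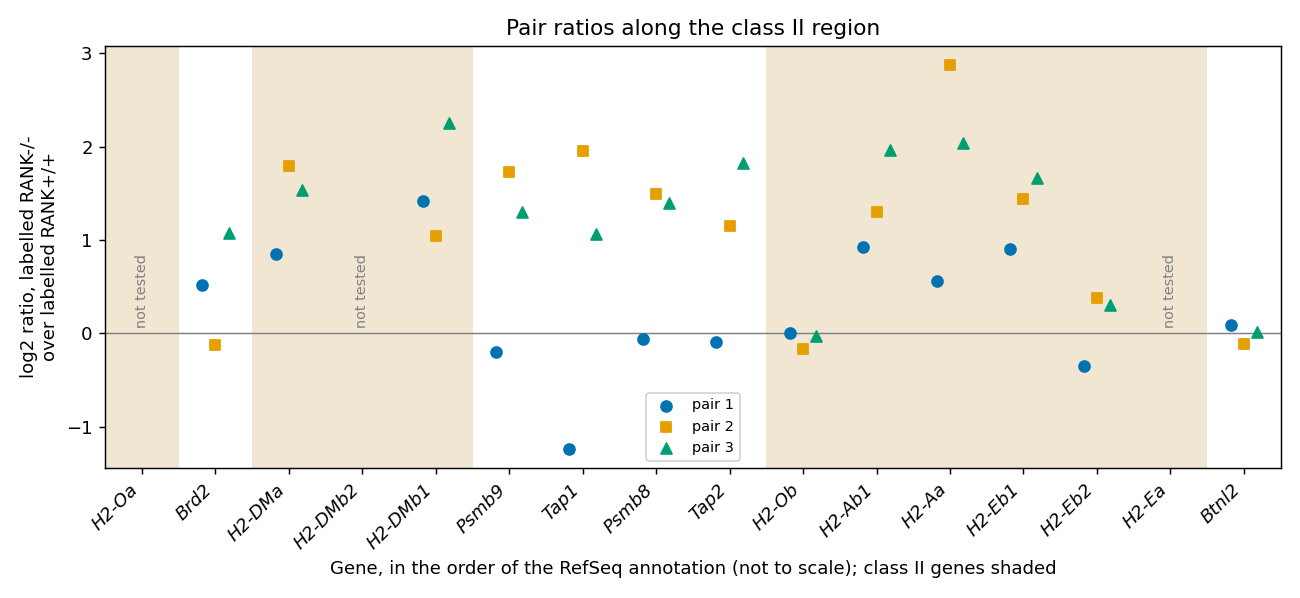
log2 ratio of the RANK-/- labeled channel over that labeled RANK+/+ (y axis) for genes in their annotated order (x axis, not to scale; class II genes shaded). Points are the 3 pairs. In pair 1 (circles) the 4 class I genes in the middle lie below 0 and 5 class II genes around them above 0.5. In pairs 2 and 3 all of these genes lie above 1. The shaded H2-Ob and H2-Eb2 lie between -0.35 and 0.38 in every pair.

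The factors that seat Ciita on these promoters had no common direction over the pairs, and their difference from Ciita was not tested. Of 7 listed (Rfx5, Rfxap, Rfxank, Nfya, Nfyb, Nfyc and Creb1), 6 were tested, and 0 were higher and 0 lower in all 3 pairs. Means ran from -0.24 for Nfyb to 0.12 for Creb1, and Rfx5 was too dim. Of 10 genes of interferon gamma signaling, 2 were higher in all pairs and 0 lower, against 9.95% and 9.65% of all genes. Irf1, an interferon-induced activator that acts on a Ciita promoter, had levels of 14.21, 15.80 and 14.56 against 13.93, 14.28 and 12.94, a mean ratio of 1.15 ± 0.75. Socs1, a feedback inhibitor of the same signaling, was at 0.24 ± 0.17. Ifngr1 (-0.10 ± 0.42) and Irf8 (0.32 ± 0.49) had ratios of both signs over the pairs. Of these 10, 1 was at an unadjusted limma p under 0.05 (Irf1) and 0 passed after adjustment.

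Among 8 lysosomal proteases and their inhibitor, 2 were higher and 1 was lower in all pairs, against 9.95% and 9.65% of all genes. Lgmn, the asparaginyl endopeptidase that starts invariant chain cleavage in some cells, was higher by a similar amount in each pair (mean 0.42 ± 0.07). Cst3, the secreted cathepsin inhibitor cystatin C, had levels of 12.11, 13.78 and 11.91 in the RANK-/- labeled channels, all below the 13.91, 13.97 and 13.84 of those labeled RANK+/+, with a mean ratio of -1.30 ± 0.97. Ctsb had a mean of 0.70 ± 1.13, with no common direction. The ubiquitin ligases that remove class II from the surface, Marchf1 (-0.04 ± 0.31) and Marchf8 (0.05 ± 0.52), showed none either, nor did the 3 tested costimulatory genes Cd80, Cd40 and Cd83 (0 of 3 higher and 0 lower in all pairs).

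The class I counterpart had a lower list median than the class II genes in pair 1, but not every class I gene differed there. Of its 10 genes, 5 were higher in all pairs and 0 lower, against 9.95% and 9.65% of all genes. The list medians were 0.00, 1.31 and 1.30 in pairs 1, 2 and 3, while the class II median in pair 1 was 0.71. Nlrc5, the class I transactivator and relative of Ciita, was at -0.81, 1.47 and 0.83. B2m, the light chain of class I, had a mean of 1.07 ± 0.77, H2-K1 1.01 ± 0.53 and Psmb10 0.82 ± 0.20. In pair 1 the 5 genes higher in all pairs were at 1.04 (H2-K1), 0.60 (Psmb10), 0.47 (H2-D1), 0.22 (B2m) and 0.06 (Tapbp). The other 5 were below 0 in that pair. H2-K1 there was above H2-Ab1 (0.92). The difference between the 2 list medians in pair 1 rests on 1 pair and was not tested. Pair 1 also differs from the others in its dye arrangement, which cannot be told apart from the pair.

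Markers of other cells that carry class II were read beside these genes. Of 6 general leukocyte markers, 5 were tested, and 0 were higher and 0 lower in all pairs, with medians of -0.92, 0.10 and 0.26. Ptprc, which encodes CD45 itself, was at levels of 6.22 to 6.45 in the RANK-/- labeled channels and 6.08 to 7.38 in the others, and its ratio in pair 1 was -0.93. Laptm5 (-0.98) and Coro1a (-0.92) were also below 0 in pair 1. Cd52 had ratios of -0.39, 0.30 and 1.58, at levels of 9.92, 8.76 and 8.47 against 10.32, 8.46 and 6.89. Lcp1 was above 0 in pair 1, with ratios of 0.49, -0.52 and 0.44 at levels of 12.08 to 13.00. Ms4a1, Cd79a and Pax5, markers of B cells, were above background on 0 arrays in either channel, as were Flt3, Xcr1 and Clec9a of dendritic cells. Other markers of these cells were seen. Cd22 of B cells was tested (levels 7.60 to 8.09, mean ratio 0.02 ± 0.34), and Cd79b exceeded background on 3 arrays, all for RANK+/+. Of the dendritic list Itgax, Zbtb46 and Ccr7 were tested, with medians of -0.98, 0.25 and 0.12, and Cd209a exceeded background on 2 arrays. All 8 macrophage markers were detected, 0 with one sign in all pairs, and their medians were -0.27, 0.25 and 0.16. In pair 1 the medians of the leukocyte, macrophage and dendritic lists were below 0, and that of the class II genes was above it. In pairs 2 and 3 all of these medians were above 0. Pair 1 also has its own dye arrangement, which cannot be told apart from the pair. The part of these cells in the class II ratios was not tested.

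Over the pairs, these markers followed the class II levels in part. In both channels of pair 3, 4 of the 8 macrophage markers (Adgre1, Cd68, C1qa and C1qc), 2 of the 5 leukocyte markers (Ptprc and Coro1a), 2 of the 3 dendritic markers (Itgax and Ccr7) and 1 of the 3 T cell markers (Cd2) were also below all levels of pairs 1 and 2. So were 4 of the 10 class I genes (Nlrc5, Psmb8, Psmb9 and Psmb10). Over all genes, 4.4% had this pattern. The mean level of the macrophage markers was 8.02, 7.81 and 7.39 in the RANK-/- labeled channels and 8.35, 7.53 and 7.30 in the others. That of the dendritic markers was 6.73, 6.82 and 6.42 against 7.47, 6.62 and 6.21. Both differed less between pair 3 and the others than the classical class II chains, Cd74, H2-DMa and H2-DMb1 did. Many of these marker probes were dim, and the offset shrinks differences of dim probes more than those of bright ones. The list means also average over markers that did not fall in pair 3. The sizes of the differences therefore cannot be compared between these markers and the class II genes. The part of these cells in the class II levels was not tested. Fibroblast markers had medians of 0.04, 0.90 and 2.17. Of the 6, 3 (Col1a1, Col1a2 and Pdgfra) were higher in all pairs, against 9.95% of all genes. Their mean level was 13.66, 13.51 and 14.12 against 13.59, 12.70 and 11.98. In pair 3 it was thus the highest of the RANK-/- labeled channels and the lowest of those labeled RANK+/+. Most class II genes were lowest in pair 3 in both. The fibroblast medians rose from pair 1 to pair 3, as those of the class II genes did (0.71, 1.17 and 1.70). Single class II genes did not all share this order. The ratios of H2-Ab1, H2-Eb1, Ctss and Ifi30 rose over the pairs. Those of H2-Aa, H2-DMa, Cd74 and Ciita were highest in pair 2, and those of H2-DMb1 and H2-Ob lowest there. The part of fibroblasts in the class II ratios was not tested. The luminal markers Krt8, Krt18, Krt19, Epcam and Cdh1 were bright in every RNA (mean level 13.2 to 14.9), and 0 of the 5 had one direction over the pairs. In pair 2, whose RANK-/- labeled RNA had the highest level of 7 of the 10 class II genes, all 5 were lower in that channel, at -0.55, -1.34, -3.95, -0.67 and -0.47 in the order named. Their part in the class II ratios was not tested. Of 6 endothelial markers 0 had one direction, and of 3 tested T cell markers 1 was higher and 1 lower in all pairs.

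**Figure D5:**
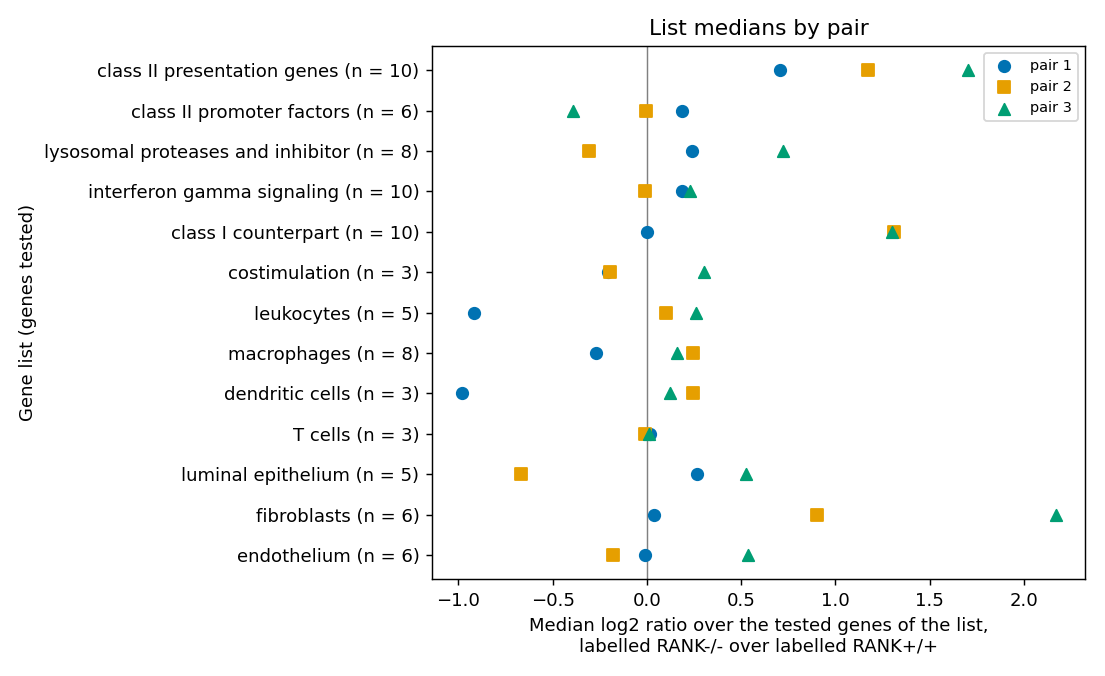
Median log2 ratio over the tested genes of each list (x axis) in the 3 pairs (points), with the number of genes tested beside each list (y axis). The class II genes lie at 0.71 or above in every pair. The leukocyte, macrophage and dendritic cell lists lie below 0 in pair 1, and fibroblast markers spread from 0.04 to 2.17.

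Which genes had a pattern most like that of Cd74 was asked by the Euclidean distance over the 3 pair ratios, among all tested genes with a symbol. The 5 nearest were H2-Aa (distance 0.82), H2-DMa (1.00), Slc2a6 (1.01), AW112010 (1.03) and Apod (1.05), so that 2 of the 5 were class II genes. Those nearest to Ciita were M1ap (0.02), Smyd2 (0.05), Mex3a (0.07), B9d1 (0.10) and Prdm16 (0.11), none of them a class II gene. Small ratios are common, so near neighbors are easily found around Ciita.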

How the data were processed

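SurePrint G3 Mouse arrays were extracted by the authors with Agilent Feature Extraction (10.7.3.1 per the labels). The deposited scanner tables hold unnormalized median spot and background intensity values, and processed intensity values that per the file headers are background-subtracted and dye-normalized, with their log10 ratio of Cy5 over Cy3. A deposited table of the series has log2 ratios normalized by the authors. Against the scanner ratios it ran as RANK-/- over RANK+/+. Both were used as alternatives.

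Median intensities were background-corrected (normexp, offset 50), and control and outlier spots were removed. Ratios were normalized by intensity loess and Aquantile (limma 3.58.1, R 4.3.3, data.table, version 1.17.8), turned to RANK-/- over RANK+/+ and averaged over arrays A and B, so n = 3. Median spot signals stood in for the planned mean signals. The methods name a spatial loess, which was run as an alternative, and dye swaps, whereas by the labels A and B share one arrangement. Per array and channel, 51.9% to 58.8% of probes were well above background and 0 were saturated, and the number of arrays limits precision.

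A probe was kept if, for one genotype, it exceeded background by the scanner flag on arrays A and B of 2 pairs or more (30230 of 55681). Symbols came from RefSeq (GRCm38.p6) by accession, which matched 28026 probes. The array grid names mm9, so no probe coordinates are given. The brightest kept probe stood for a gene. limma (intercept only, two-sided, Benjamini-Hochberg over 22503 genes) was checked on simulated data. The 10 genes, the lists and the rule for named genes (all 10 genes, counts and examples from each list, nearest genes, Tnfrsf11a) were chosen with earlier results of these data known. Some list genes are not reported here.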

Additional observations from a re-analysis of the deposited data

How the results depend on the processing

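The number of class II genes higher in every pair was 7 or 8 under its 14 alternatives. The 7 came from the filter that required every array above background, which tested 8 of the genes. With 1 pair left out, only the remaining pairs were counted, and 17.8% to 28.8% of all genes were higher in them. The median ratio of the class II genes was 1.09 to 1.59 under 15 alternatives. The number in the shared ranking of RNAs, a result added after seeing the data, was 6 or 7 under 10. None of the 10 genes changed sign in its mean under these settings. H2-Ob and Ciita had no value when probes had to be above background on every array. The limma count of 0 became 13 with the pair as a random block (consensus correlation 0.962) and 9 with the rank product (4 higher, 5 lower). The first counts technical replicates by construction, and for the second the cause was not tested. Leaving out 1 pair kept the limma count at 0 and gave 0 to 7 genes with separate levels, the 7 without pair 3. The median difference from Ciita went from 1.04 to 0.37 with the processed signals, and ranged from 0.72 to 1.32 when 1 pair was left out. With median centring instead of loess the median of all genes was -0.14, and the share higher in all pairs from 9.95% to 3.81%. Without a replicate block, with channels as 6 separate samples, the limma count was 0 (828 genes had an unadjusted p under 0.05, with 0 of the 10 among them). Over all genes, RNAs of one pair did not deviate together (correlations -0.0341, -0.218 and -0.0411), whereas 8 of the 10 class II genes were low in both RNAs of pair 3. The labels give the pairing only as one of shared arrays. Dim probes limit Ciita and H2-Ob.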
